A study of Mus musculus with 9 samples.

Results

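Neurog3 and 8 genes of the endocrine progenitor programme (Neurod1, Fev, Rfx6, Myt1, St18, Sox4, Mfng and Amotl2) were followed through RNA sequencing of whole pancreas from mouse embryos at day e15.5. The 9 genes were taken by gene symbol from 23235 symbols. The groups were Blinc1-/- (KO), Blinc1+/- (Het) and wild type (WT), with 3 libraries each, all on a mixed background of c57bl/6 and 129sv. Blinc1 encodes a long noncoding RNA and neighbours Nkx2-2, the gene of a transcription factor of islet cells. The labels give neither the construction of the Blinc1 allele nor whether replicates are different embryos or litters. The p-values therefore reflect no more than the scatter among these libraries, which may be technical. No level of Blinc1 itself was analysed here, so the genotype labels were not checked against the targeted transcript. Values are FPKM, fragments corrected for transcript length and sequencing depth, as the authors deposited them.

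In the embryonic pancreas, endocrine cells arise from epithelial progenitors that transiently switch on Neurog3, a basic helix-loop-helix transcription factor without which no islet endocrine cells form in the mouse. Neurog3 protein binds E-box sequences and turns on further transcription factors that carry the cells toward hormone-producing fates. Notch signals from neighbouring cells hold Neurog3 down, so that only scattered cells enter the endocrine path at any one time.

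Neurog3 and the 3 downstream transcription factor genes Neurod1, Fev and Rfx6 are introduced by their promoters, because their levels varied together across the libraries. Each line gives the 250 bases before and 50 bases after the annotated start, on the gene's own strand, from RefSeq on GRCm38.p6. Capitals mark the E-box CANNTG, searched on both strands, on which it reads the same. The specific words named in the next paragraph are all forms of it, and CAGATG was searched together with its reverse complement. Neurog3 lies at chr10:62132840-62133139 on the plus strand, Neurod1 at chr2:79456587-79456886 on the minus strand, Fev at chr1:74885359-74885658 on the minus strand and Rfx6 at chr10:51685268-51685567 on the plus strand.
Neurog3: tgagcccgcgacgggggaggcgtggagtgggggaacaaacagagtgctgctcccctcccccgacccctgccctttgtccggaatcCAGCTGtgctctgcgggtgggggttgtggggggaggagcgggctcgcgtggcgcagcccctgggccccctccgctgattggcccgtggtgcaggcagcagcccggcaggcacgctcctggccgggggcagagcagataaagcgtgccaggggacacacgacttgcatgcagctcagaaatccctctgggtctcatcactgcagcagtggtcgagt
Neurod1: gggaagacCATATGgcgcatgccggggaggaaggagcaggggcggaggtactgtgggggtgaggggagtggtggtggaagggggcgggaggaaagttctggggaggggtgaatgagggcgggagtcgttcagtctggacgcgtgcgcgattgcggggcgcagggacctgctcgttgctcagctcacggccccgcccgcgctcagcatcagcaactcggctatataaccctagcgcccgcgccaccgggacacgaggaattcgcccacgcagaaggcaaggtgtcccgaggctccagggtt
Fev: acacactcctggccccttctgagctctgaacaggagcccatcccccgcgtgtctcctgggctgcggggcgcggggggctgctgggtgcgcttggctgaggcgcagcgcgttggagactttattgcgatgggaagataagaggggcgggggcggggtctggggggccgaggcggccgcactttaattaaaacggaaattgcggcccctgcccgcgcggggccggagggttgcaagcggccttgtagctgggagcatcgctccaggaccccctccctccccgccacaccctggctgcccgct
Rfx6: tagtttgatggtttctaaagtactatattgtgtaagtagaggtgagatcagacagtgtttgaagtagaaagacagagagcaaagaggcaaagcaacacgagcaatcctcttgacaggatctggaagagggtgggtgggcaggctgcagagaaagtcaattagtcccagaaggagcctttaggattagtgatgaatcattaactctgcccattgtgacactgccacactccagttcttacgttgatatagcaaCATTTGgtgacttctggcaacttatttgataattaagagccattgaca

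The Neurog3 window held 1 E-box, CAGCTG, beginning 165 bases before the start (position -165). The Neurod1 window held 1, CATATG, at position -242, and the Rfx6 window held 1, CATTTG, at position 3 of the transcript. The Fev window held none. An E-box of any kind was present in 72.3% of the 32851 promoters of the table, CAGCTG in 16.3% and CATATG in 3.91%, so such a match is common and is given as a description only. CAGATG, found in 17.2% of all promoters, was in none of the members' windows. In all, 7 of the 9 members had a promoter in the table, with 9 entries since Myt1 has 3, and 6 of the 9 entries held an E-box; St18 and Mfng were not matched.

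The implied depth of the 9 libraries was 19532984 to 25437255 fragments, and rank correlations between libraries were 0.9783 to 0.9915. The pancreas label was borne out by acinar enzyme genes, whose summed level was 18946 to 29573 FPKM, and by islet hormone and granule genes at 3854 to 6665 FPKM. Xist and Y-linked genes showed all 3 KO libraries, Het replicate 3 and WT replicate 3 to be female and the other 4 to be male. The labels give no batch. Of the 3 KO libraries, replicate 1 stood apart, as did replicate 1 of the Het libraries: Nkx2-2 had 24.9, 6.08 and 5.48 FPKM in KO replicates 1, 2 and 3, 6.37, 19.0 and 13.4 FPKM in Het replicates, and 15.2, 21.7 and 25.5 FPKM in WT replicates. Results are therefore given with all 9 libraries and also without KO replicate 1, or without both. That omission was chosen with earlier results of these data known. Whether the labels of these 2 libraries were exchanged was not tested, and every KO and Het mean and difference rests on the labels as given.

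All 9 members were detected in every library, and all passed the filter for testing (at least 1 FPKM in at least 3 libraries), as did 13306 genes. Per length, Neurog3 was the highest of them. In WT libraries, Neurog3 averaged 60.5 FPKM, followed by Sox4 (27.2 FPKM), Amotl2 (19.1 FPKM), Mfng (14.6 FPKM), Neurod1 (9.88 FPKM), Fev (6.69 FPKM), Rfx6 (3.78 FPKM), Myt1 (3.68 FPKM) and St18 (1.82 FPKM). The WT ranges of Rfx6 and Myt1 overlapped, and those of the other neighbours in this order did not. The order of the means was the same in KO and in Het libraries, where Fev and Rfx6 also overlapped, and in KO libraries Amotl2 and Mfng, and Neurod1 and Fev, overlapped too. Because a whole organ was sequenced, fewer cells of a type and less RNA per cell cannot be told apart in any of these levels.

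**Figure D1:**
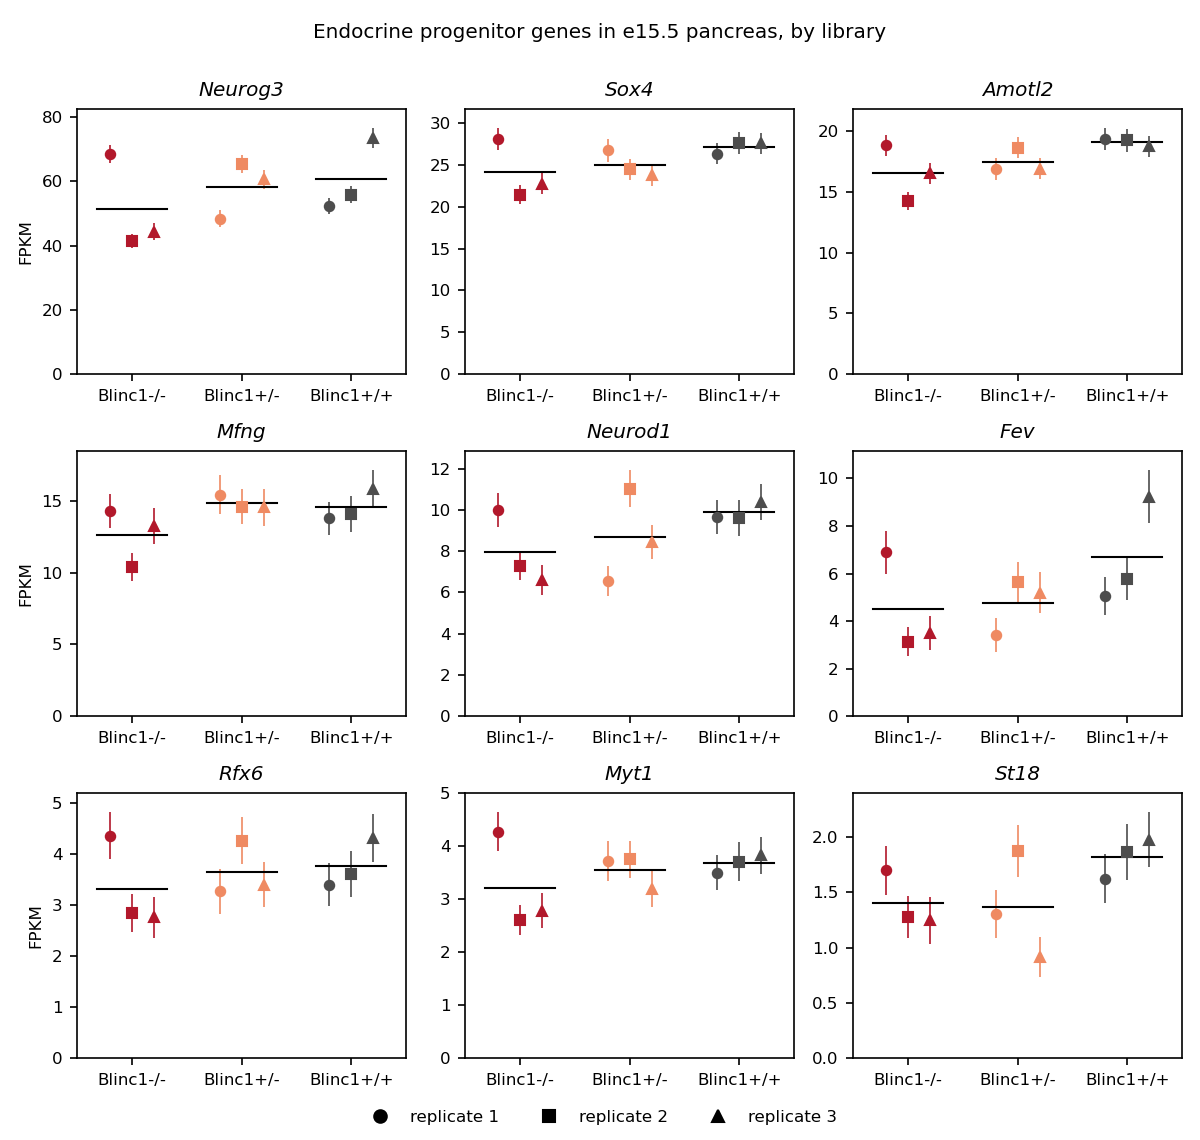
Level of each of the 9 genes in FPKM in the KO, Het and WT libraries, with 1 symbol per library (vertical lines are the deposited confidence bounds) and a horizontal bar at the group mean; WT is labelled Blinc1+/+. For Neurog3, KO replicate 1 (68.6 FPKM) lies among the WT libraries while KO replicates 2 and 3 (41.3 and 44.4 FPKM) lie below them.

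Neurog3 passed the test between no pair of genotypes when all libraries were used. It measured 68.6, 41.3 and 44.4 FPKM in KO replicates 1, 2 and 3, 48.3, 65.3 and 60.6 FPKM in Het replicates 1, 2 and 3, and 52.4, 55.8 and 73.4 FPKM in WT replicates 1, 2 and 3. The groups overlapped: KO replicate 1 exceeded WT replicates 1 and 2, whereas KO replicates 2 and 3 were the lowest 2 libraries of the 9. Group means were 51.4 ± 14.9 FPKM in KO, 58.1 ± 8.79 FPKM in Het and 60.5 ± 11.2 FPKM in WT (SD, n = 3 each). The deposited confidence bounds, which cover counting, were 65.8 to 71.4 FPKM for KO replicate 1 and 39.1 to 43.5 FPKM for KO replicate 2, and the implied fragments behind the 9 values were 1238 to 2384. On the log2(FPKM + 1) scale, KO differed from WT by -0.25 (SE 0.20, 95% interval -0.70 to 0.20, adjusted p = 0.671 by limma) and Het from WT by -0.05 (SE 0.20, 95% interval -0.50 to 0.39, adjusted p = 0.984 by limma). KO differed from Het by -0.20 (95% interval -0.64 to 0.25). Neurog3 occupies chr10:61595838-61597511 on the plus strand of mm9 in 2 exons, and shares 273 exon bases with the minus-strand gene 2010107G23Rik (8.55 to 11.9 FPKM); strand use in counting is not given in the sources used here, so reads of the 2 genes over those bases cannot be told apart.

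Neurod1, a basic helix-loop-helix factor that acts after Neurog3 and is kept in maturing islet cells, measured 9.99, 7.28 and 6.60 FPKM in KO replicates 1, 2 and 3, 6.54, 11.0 and 8.44 FPKM in Het replicates, and 9.66, 9.60 and 10.4 FPKM in WT replicates. The 3 WT values lay within 1 FPKM of each other, and KO replicate 1 lay within that band. KO replicates 2 and 3 and Het replicates 1 and 3 lay below it, and Het replicate 2 above. KO averaged 7.96 ± 1.79 FPKM and WT 9.88 ± 0.434 FPKM, a log2 difference of -0.30 (SE 0.18, 95% interval -0.69 to 0.10, adjusted p = 0.593 by limma). Neurod1 lies at chr2:79292798-79296793 on the minus strand of mm9, with 201 exon bases shared with Cerkl, which itself had 0.0792 to 0.308 FPKM. Another 154 exon bases overlap the annotated lincRNA Gm17325 on the plus strand, for which no level was available.

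Fev (chr1:74928083-74931982, minus strand, 3 exons, mm9), an ETS-family factor of endocrine progenitors that is also known from serotonin neurons, varied most of the members. It measured 6.90, 3.13 and 3.49 FPKM in KO replicates 1, 2 and 3, 3.42, 5.65 and 5.19 FPKM in Het replicates, and 5.05, 5.77 and 9.24 FPKM in WT replicates. WT replicate 3 was the highest library and KO replicate 2 the lowest, 2.95-fold apart, and the groups overlapped through KO replicate 1. The log2 difference was -0.51 for KO against WT (SE 0.28, 95% interval -1.14 to 0.12, adjusted p = 0.587 by limma) and -0.40 for Het against WT (SE 0.28, 95% interval -1.03 to 0.23, adjusted p = 0.945 by limma). Between 91 and 284 implied fragments lay behind each Fev value.

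Rfx6 (chr10:51397566-51450235, plus strand, 19 exons, mm9), a winged-helix factor downstream of Neurog3 that is required for islet development in the mouse, followed the same libraries. It measured 4.36, 2.85 and 2.76 FPKM in KO replicates 1, 2 and 3, 3.27, 4.26 and 3.40 FPKM in Het replicates, and 3.40, 3.61 and 4.31 FPKM in WT replicates. KO replicate 1 was the highest of all 9 libraries and KO replicates 2 and 3 were the lowest. The log2 difference of KO against WT was -0.16 (SE 0.15, 95% interval -0.50 to 0.18, adjusted p = 0.721 by limma).

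Myt1 and St18 encode zinc finger factors of 1 family. Myt1 lies at chr2:181498037-181562480 with 23 exons and St18 at chr1:6477312-6851021 with 24, both on the plus strand of mm9. Myt1 measured 4.28, 2.60 and 2.78 FPKM in KO replicates 1, 2 and 3, 3.73, 3.76 and 3.20 FPKM in Het replicates, and 3.50, 3.71 and 3.83 FPKM in WT replicates. As with Rfx6, the KO libraries included both the highest value and the lowest 2. St18 measured 1.70, 1.28 and 1.25 FPKM in KO replicates 1, 2 and 3, 1.30, 1.87 and 0.917 FPKM in Het replicates, and 1.62, 1.86 and 1.98 FPKM in WT replicates. St18 was the lowest of the members, and its lowest library was Het replicate 3, not a KO library. The log2 differences of KO against WT were -0.17 for Myt1 (SE 0.14, adjusted p = 0.681 by limma) and -0.23 for St18 (SE 0.16, adjusted p = 0.626 by limma). Since 1 FPKM is added before the logarithm, such differences are understated for genes as low as St18.

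Sox4 (chr13:29042599-29045551, minus strand, 1 exon, mm9), an HMG-box factor that works with Neurog3 in endocrine differentiation and is expressed well beyond that lineage, measured 28.1, 21.4 and 22.7 FPKM in KO replicates 1, 2 and 3, 26.7, 24.4 and 23.7 FPKM in Het replicates, and 26.3, 27.6 and 27.6 FPKM in WT replicates. It varied least of the members, 1.31-fold from the lowest library to the highest. The log2 difference of KO against WT was -0.18 (SE 0.09, 95% interval -0.38 to 0.03, adjusted p = 0.576 by limma). The annotated lincRNA Gm17419 covers 2616 exon bases of Sox4 on the other strand. Strand use in counting is not given, so reads of both genes over those bases cannot be told apart.

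Mfng (chr15:78586313-78603875, minus strand, 8 exons, mm9), a glycosyltransferase that modifies Notch receptors, measured 14.3, 10.4 and 13.3 FPKM in KO replicates 1, 2 and 3, 15.4, 14.6 and 14.6 FPKM in Het replicates, and 13.8, 14.1 and 15.9 FPKM in WT replicates. Every KO library lay below every Het library, while KO and WT overlapped. The log2 difference of KO against Het was -0.23 (SE 0.11, 95% interval -0.47 to 0.01, adjusted p = 0.9998 by limma). Against WT it was -0.20 in KO (SE 0.11, adjusted p = 0.576 by limma) and 0.03 in Het.

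Amotl2 (chr9:102620134-102635747, plus strand, 11 exons, mm9), an angiomotin-family scaffold protein of cell junctions, measured 18.8, 14.3 and 16.5 FPKM in KO replicates 1, 2 and 3, 16.8, 18.6 and 16.9 FPKM in Het replicates, and 19.3, 19.2 and 18.7 FPKM in WT replicates. Every Het library lay below every WT library, and KO replicate 1 alone of the KO libraries reached the WT range. The KO against WT difference of -0.20 (SE 0.09, 95% interval -0.41 to -0.0024, unadjusted p = 0.0478, adjusted p = 0.576 by limma) was the only member value with an unadjusted p below 0.05. For Het against WT it was -0.12 (SE 0.09, adjusted p = 0.945 by limma).

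No member passed an adjusted p of 0.05 in any of the 3 comparisons. Neither did any other gene: limma called 0 of 13306 genes (0%) for KO against WT, for Het against WT and for KO against Het. At an unadjusted p below 0.05 it gave 1117, 522 and 296 genes in those comparisons, and the voom form of limma on implied fragments also called 0 genes, with 1165, 505 and 275 at an unadjusted p below 0.05. With 3 libraries against 3, a permutation of labels cannot give a two-sided p below 0.1. For KO against WT, the log2 difference was below 0 in 9 of 9 members with a median of -0.20, beside 58.5% of all genes tested and a median of -0.03. For Het against WT it was below 0 in 8 of 9 members with a median of -0.12, beside 57.1% and -0.02. For KO against Het it was below 0 in 8 of 9, with a median of -0.10, beside 55.3% and -0.01. The Het against WT differences not yet given were -0.20 for Neurod1, -0.04 for Rfx6, -0.04 for Myt1, -0.27 for St18 (95% interval -0.62 to 0.08) and -0.12 for Sox4. The KO against Het differences not yet given were -0.10 for Neurod1, -0.10 for Fev, -0.12 for Rfx6, -0.13 for Myt1, 0.04 for St18, -0.06 for Sox4 and -0.08 for Amotl2. The first 2 comparisons share the WT libraries, the first and the last share the KO libraries, and the last 2 share the Het libraries.

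**Figure D2:**
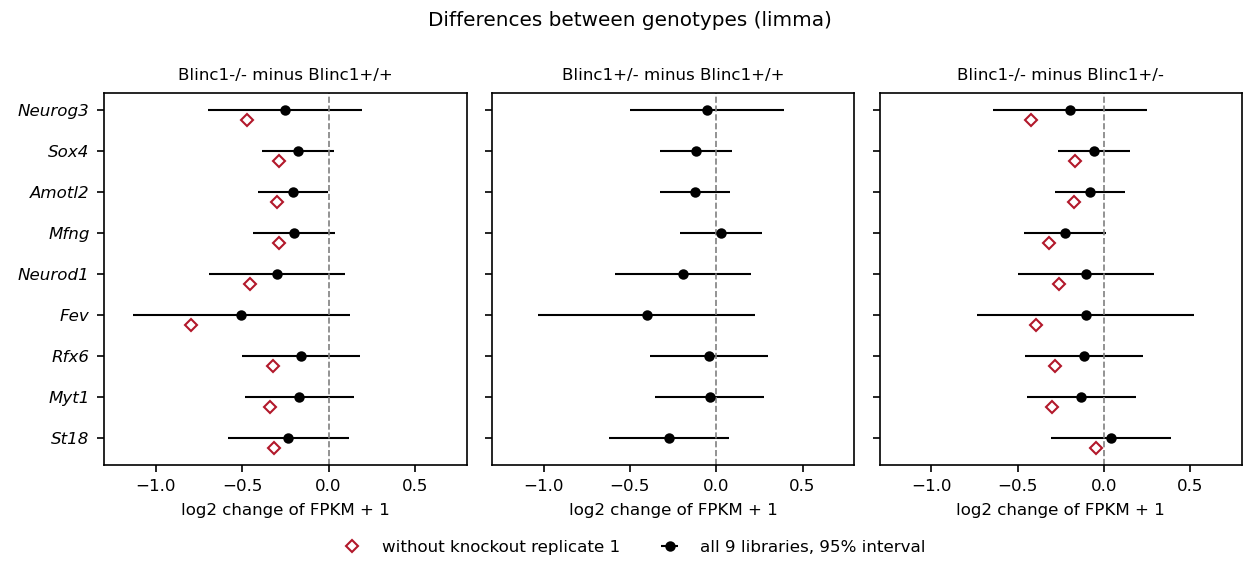
Log2 difference in log2(FPKM + 1) for each of the 9 genes for KO against WT, Het against WT and KO against Het, with 95% intervals from limma (black points and lines); red open diamonds give the estimate without KO replicate 1, and Blinc1+/+ is WT. All 9 KO against WT estimates lie below 0, from -0.51 (Fev) to -0.16 (Rfx6), and only the interval of Amotl2 ends below 0.

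Counts of members against the background were as follows. At an unadjusted limma p below 0.05, 1 of 9 members was lower in KO than in WT, where 5.79% of all genes were, and 0 members were lower in Het than in WT (2.58% of genes) or in KO than in Het (0.969% of genes). Groups that did not overlap, the first group lower, were seen for 0 of 9 members in KO against WT (6.64% of genes), for Amotl2 alone in Het against WT (7.05% of genes) and for Mfng alone in KO against Het (2.43% of genes). These counts were near the background or too small to read against it.

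The libraries of a group differed in the members as a whole. Set to the WT mean of each gene, the median over the 9 members was 103% in KO replicate 1, 71.1% in KO replicate 2 and 73.3% in KO replicate 3. It was 86.5%, 102% and 87.4% in Het replicates 1, 2 and 3, and 94.5%, 97.2% and 109% in WT replicates 1, 2 and 3. All 9 members were below the WT mean in KO replicate 2 and again in KO replicate 3, and 3 of 9 in KO replicate 1. The lowest single values were those of Fev in KO replicate 2 (46.8% of the WT mean) and of St18 in Het replicate 3 (50.4%).

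**Figure D3:**
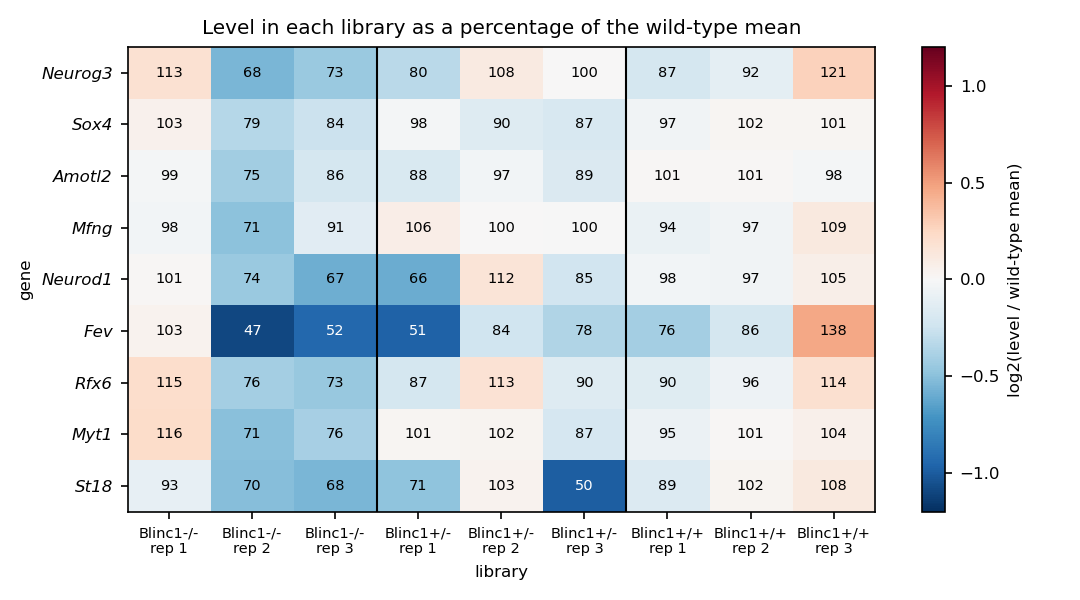
Level of each of the 9 genes in each library as a percentage of that gene's WT mean (colour on a log2 scale, number in each cell the percentage), with KO libraries left, then Het, then WT. KO replicates 2 and 3 are below 100% for every gene, with medians of 71.1% and 73.3%, and KO replicate 1 has a median of 103%.

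Without KO replicate 1, the KO against WT log2 differences became larger: -0.47 for Neurog3, -0.46 for Neurod1, -0.80 for Fev, -0.32 for Rfx6, -0.34 for Myt1, -0.32 for St18, -0.29 for Sox4, -0.29 for Mfng and -0.30 for Amotl2. In that fit 8 of 9 members, all but St18, had an unadjusted limma p below 0.05, where 14.9% of 13230 genes were lower at that threshold. KO replicate 1 was the highest KO library for each of the 9 members, so leaving it out could only make these differences more negative. KO then rested on replicates 2 and 3 alone. The members also varied together across libraries, so those 8 are not separate results. The adjusted p of the members then ran from 0.0992 (Sox4) to 0.330 (St18) by limma, so none passed. Leaving out Het replicate 1 as well gave the same differences, with adjusted p from 0.0959 to 0.356 by limma. KO against Het then differed by -0.54 for Neurog3, -0.58 for Fev and -0.43 for Neurod1, with adjusted p of 0.610, 0.718 and 0.619 by limma. Leaving out any 1 of the other 8 libraries left 0 members with an unadjusted limma p below 0.05 for KO against WT. Most differences were smaller without KO replicate 2, KO replicate 3 or WT replicate 3. Without KO replicate 2 they were -0.12 for Neurog3, -0.25 for Neurod1, -0.33 for Fev, -0.09 for Rfx6, -0.07 for Myt1, -0.19 for St18, -0.10 for Sox4, -0.08 for Mfng and -0.11 for Amotl2. Without KO replicate 3 they were -0.17 for Neurog3, -0.19 for Neurod1, -0.07 for Rfx6 and -0.10 for Myt1, with proportionally less movement in the other 5. Without WT replicate 3, the highest library for Neurog3, they were -0.11 for Neurog3, -0.28 for Fev and -0.08 for Rfx6.

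Sex ran with genotype in part, since no KO library was male. Among female libraries, Neurog3 was at 68.6, 41.3 and 44.4 FPKM in KO, 60.6 FPKM in the single Het library and 73.4 FPKM in the single WT library. Among male libraries it was at 48.3 and 65.3 FPKM in Het and at 52.4 and 55.8 FPKM in WT. With sex as a covariate, the KO against WT difference was -0.43 for Neurog3 (SE 0.24, adjusted p = 0.872 by limma). For Fev it was -0.80 (SE 0.32, adjusted p = 0.872 by limma). The sex term of that fit came from the Het and WT libraries together, with 1 female and 2 male libraries in each of those groups. The other differences were then -0.33 for Neurod1, -0.20 for Rfx6, -0.13 for Myt1, -0.13 for St18, -0.15 for Sox4, -0.24 for Mfng and -0.17 for Amotl2. The unadjusted limma p of Amotl2 was then 0.175 and that of Fev 0.0371. Fev was the 1 member below 0.05 in that fit, where 335 of 13306 genes were lower at that threshold.

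The same few libraries were low for several members. KO replicates 2 and 3 and Het replicate 1 were the lowest 3 of 9 libraries for 5 members (Neurog3, Neurod1, Fev, Rfx6 and Amotl2), a pattern held by 3.66% of all genes tested. KO replicates 2 and 3 were the lowest 2 for 6 members (Neurog3, Rfx6, Myt1, Sox4, Mfng and Amotl2), which held for 11.2% of genes. Both patterns were noticed after the values had been seen, so these shares are descriptions.

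Likeness between genes was measured by Pearson's r of log2(FPKM + 1) over the 9 libraries, with 9599 other genes ranked against Neurog3 (those averaging at least 5 FPKM, and the members). All genes were read from the same libraries, so differences between libraries in dissection or depth can enter every r. The genes most like Neurog3 were Rfx6 (r = 0.948), Hepacam2 (0.943), Fev (0.942), Mmd2 (0.938) and Adck2 (0.937), with Spearman's rho of 0.917, 0.95, 0.933, 0.933 and 0.933. Leaving out the 2 libraries farthest from the median Neurog3 level (KO replicate 2 and WT replicate 3) gave r of 0.929, 0.883, 0.903, 0.874 and 0.885 for these 5 genes. Hepacam2, an immunoglobulin-domain adhesion protein gene, measured 9.14, 5.69 and 6.25 FPKM in KO replicates 1, 2 and 3, 6.37, 8.42 and 7.05 FPKM in Het replicates, and 7.32, 8.17 and 9.47 FPKM in WT replicates. Toward the other end were Eif2s2, a translation initiation factor subunit gene (r = -0.942), and 1110058L19Rik (-0.933). Eif2s2 measured 43.0, 52.1 and 54.8 FPKM in KO replicates 1, 2 and 3, 49.7, 46.2 and 46.8 FPKM in Het replicates, and 48.1, 46.4 and 42.7 FPKM in WT replicates.

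The other members ranked lower in likeness to Neurog3: Neurod1 72nd (r = 0.831), Myt1 136th (0.786), Amotl2 296th (0.722), Mfng 386th (0.699), Sox4 606th (0.637) and St18 1182nd (0.534). Without the same 2 libraries, r was 0.284 for Mfng, 0.322 for Sox4 and 0.347 for St18, so those relations rested largely on them. Over the 36 pairs of members r ran from 0.31 (St18 and Mfng) to 0.95 (Neurog3 and Rfx6), with a median of 0.72, beside a median of 0.06 over all pairs of 9597 genes averaging at least 5 FPKM. The gene most like each other member was Cryba2 for Neurod1 (r = 0.969), Tesc for Fev (0.972), Entpd3 for Rfx6 (0.974), Lrp11 for Myt1 (0.959), Krt19 for St18 (0.947), Fam171a2 for Sox4 (0.976), Gnb2 for Mfng (0.957) and Col18a1 for Amotl2 (0.974).

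The downstream factors were also set against Neurog3 itself in each library. Rfx6 amounted to 6.35, 6.90 and 6.22 FPKM per 100 FPKM of Neurog3 in KO replicates 1, 2 and 3, 6.77, 6.52 and 5.61 in Het replicates, and 6.50, 6.46 and 5.88 in WT replicates. The 3 groups overlapped in this ratio. Neurod1 amounted to 14.6, 17.6 and 14.9 FPKM per 100 FPKM of Neurog3 in KO replicates, 13.6, 16.9 and 13.9 in Het replicates, and 18.4, 17.2 and 14.1 in WT replicates. KO replicate 2, the lowest for Neurog3, was the highest KO library in this ratio. Myt1 amounted to 6.24, 6.31 and 6.28 FPKM per 100 FPKM of Neurog3 in KO replicates, 7.72, 5.75 and 5.28 in Het replicates, and 6.69, 6.64 and 5.22 in WT replicates. The KO libraries were close to each other in the Myt1 ratio and lay within the Het and WT ranges. Fev amounted to 10.1, 7.57 and 7.87 FPKM per 100 FPKM of Neurog3 in KO replicates, 7.08, 8.65 and 8.57 in Het replicates, and 9.65, 10.3 and 12.6 in WT replicates. The Fev ratio was thus lowest in Het replicate 1 and KO replicates 2 and 3, the libraries with the least Neurog3. Differences between groups in these ratios were not tested.

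The wider programme was described through lists. Of 21 other endocrine progenitor genes, 15 were lower and 6 higher in KO than in WT (median log2 difference -0.11), and 0 passed an adjusted p of 0.05 by limma. At an unadjusted limma p below 0.05, 3 were lower (Cdkn1c, Cck and Runx1t1, named after their values were seen), where 5.79% of all genes tested were. That count was also 3 among 17 islet hormone and granule, 12 mesenchyme, 9 endothelial and 7 immune genes, and 0 or 1 in each remaining list. Cdkn1c, a cell cycle inhibitor gene and the highest of the 21 genes, measured 374, 309 and 323 FPKM in KO replicates 1, 2 and 3, 358, 352 and 350 FPKM in Het replicates, and 397, 422 and 375 FPKM in WT replicates. Its KO against WT difference was -0.25 (SE 0.08). Every KO library was below every WT library for Cdkn1c, by a small margin in KO replicate 1. The next highest, Hes6, Cdkn1a and Btg2, differed by 0.00, 0.13 and 0.07. Nkx2-2 differed by -1.01 (SE 0.53, adjusted p = 0.576 by limma), with the library pattern given above.

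Of 11 tested genes of multipotent and bipotent progenitors, 10 were higher and 1, Gata6, lower in KO than in WT (median 0.07), and 0 passed. Gata4, Pdx1 and Foxa2, transcription factor genes of the early pancreatic epithelium, differed by 0.27 (SE 0.11), 0.11 (SE 0.09) and 0.19 (SE 0.05). Of 17 tested Notch pathway genes, 12 were lower and 5 higher (median -0.10), and 0 passed. The 3 with the highest mean level, Lfng (a relative of Mfng), Hes1 (the Notch effector that represses Neurog3) and Nrarp, differed by 0.04, 0.03 and 0.08 and are among the 5 that were higher. The lowest differences of the list, picked after the values were seen, were those of the receptor gene Notch3 (-0.36) and the Notch target genes Hey1 (-0.32) and Hey2 (-0.31).

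Markers of finished endocrine cells and of other cell types moved with some of these values. The 17 islet hormone and granule genes summed to 5730, 4209 and 3854 FPKM in KO replicates 1, 2 and 3, 4004, 5825 and 4962 FPKM in Het replicates, and 4861, 6401 and 6665 FPKM in WT replicates. Ins2 alone held 1191 to 3007 FPKM of these sums. In KO against WT, 14 of 17 were lower (median -0.37), 0 passing, and 3 were higher: Sst (0.89), Ppy (0.29) and Cpe (0.07). Sst measured 151, 422 and 455 FPKM in KO replicates, 375, 201 and 174 FPKM in Het replicates, and 152, 155 and 191 FPKM in WT replicates. The 12 acinar genes summed to 18946, 29573 and 24267 FPKM in KO replicates 1, 2 and 3, 21878, 26019 and 23721 FPKM in Het replicates, and 20901, 20955 and 21181 FPKM in WT replicates, with 11 of 12 higher in KO than in WT (median 0.24), 0 passing. FPKM are relative to the fragments of the whole library. The part of the acinar share in the members' values was not tested. KO replicate 2 had the highest acinar and erythroid sums of all libraries, and the lowest mesenchyme, endothelial, immune and Notch pathway sums.

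Mesenchyme genes were lower in 12 of 12 (median -0.36; sums of 1148 to 1647 FPKM in KO and 1429 to 2005 FPKM in WT), endothelial genes in 9 of 9 (median -0.19; 223 to 285 FPKM in KO and 272 to 311 FPKM in WT) and immune genes in 7 of 7 (median -0.36; 191 to 225 FPKM in KO and 236 to 258 FPKM in WT) for KO against WT, and 0 passed. Amotl2, which is also expressed in endothelium, and Col18a1, the gene most like it, were low in the same KO replicate 2 as the endothelial sum. Low values there were not particular to Amotl2, since all 9 members were below their WT means in that library. Neuron and glia genes summed to 304, 119 and 130 FPKM in KO replicates 1, 2 and 3, 360, 115 and 217 FPKM in Het replicates, and 175, 219 and 157 FPKM in WT replicates. Myt1, St18 and Sox4 are also known from neurons. In Het replicate 1, with the highest neuronal sum, they were at 101%, 71.5% and 98.4% of their WT means, and Neurog3 was at 79.8%. In KO replicate 1, with the next highest neuronal sum, they were at 116%, 93.3% and 103%, and Neurog3 was at 113%. The 6 erythroid genes summed to 5082, 7072 and 6122 FPKM in KO replicates, 5458, 2596 and 4596 FPKM in Het replicates, and 4781, 6985 and 5481 FPKM in WT replicates. The part of these cell types in the members' values was not tested.

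**Figure D4:**
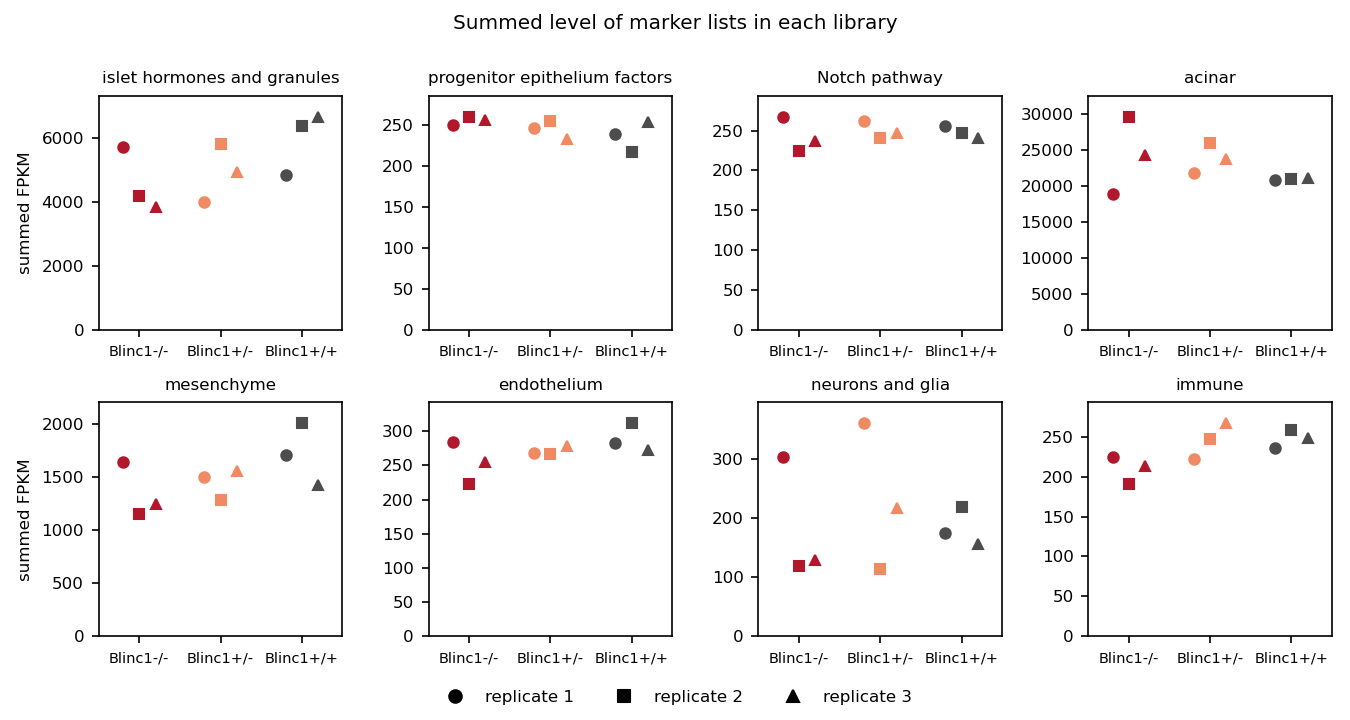
Summed FPKM of 8 gene lists in each library, with KO (Blinc1-/-) left, then Het (Blinc1+/-) and WT (Blinc1+/+), and 1 symbol per replicate. In KO replicates 2 and 3 the islet hormone and granule sum (4209 and 3854 FPKM) lies below all 3 WT libraries and the acinar sum (29573 and 24267 FPKM) above them.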

How the data were processed

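Total RNA of whole e15.5 pancreas was sequenced in 9 libraries, 3 per genotype, with groups and replicate numbers taken from the titles. Per the labels, TopHat 2.0.4 placed the reads on mm9, with 4 mismatches and up to 10 hits allowed. The submitters' processing notes also name CASAVA 1.8.2, Cufflinks and DESeq. The values are FPKM with confidence bounds, also in FPKM, as the authors deposited them, per the file headers. Which annotation was used, and whether strand entered the counting, is not given in the sources here. Values whose status word marked too much data were set to missing, which removed 4 symbols, and loci sharing a symbol were summed.

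Tests used log2(FPKM + 1), genes with at least 1 FPKM in at least 3 libraries, and limma 3.58.1 with an intensity trend in R 4.3.3. All 9 libraries entered 1 fit with genotype as the only term, and p-values were adjusted by Benjamini-Hochberg over 13306 genes, with a threshold of 0.05. The script was tested on simulated data. Fragments were implied from FPKM and its upper bound, taken as 2 standard errors away, and intervals from them cover counting error only. Positions are 1-based on mm9, with exons from GENCODE for that assembly. Coordinates of promoters are those of GRCm38.p6.

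The members and gene lists (other endocrine progenitor genes, multipotent and bipotent progenitor factors, Notch pathway, islet hormones and granules, acinar, mesenchyme, endothelium, neurons and glia, erythroid, immune) were chosen with earlier results of these data known. Named were all 9 members, the 5 genes most and 3 least like Neurog3 by Pearson's r, and the 1 gene most like each other member. Up to 4 other endocrine progenitor genes and up to 3 Notch and progenitor genes were named by mean level, with Nkx2-2. Gata6, Cck, Runx1t1, Notch3, Hey1, Hey2, Ins2, Sst, Ppy and Cpe were added after their values were seen. Of the 3 least like, 1 is not reported here. Alternatives covered pseudocount, filter, scaling, samples in the fit, replicate block, sex, library weights, voom, and leaving out libraries.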

Additional observations from a re-analysis of the deposited data

How the results depend on the processing

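For KO against WT, the log2 difference of all 9 members stayed below 0 in each of the 177 member values from the alternatives run, and no member passed an adjusted p of 0.05 in any comparison (adjusted p 0.0755 to 0.976 for KO against WT by limma). For Het against WT and for KO against Het, 10 of 177 values each changed sign. Many of these values could not change. The estimate for a pair of groups stays the same under another filter, with a replicate block or with only those groups in the fit. It also stays the same when a library of the third group is left out. The 177 values are therefore not separate checks of the sign. The number of genes called, 0 in all 3 comparisons, changed as follows, and the cause was not tested. For KO against WT it was 1 with only the 2 groups in the fit, 5 with library weights, 4 without Het replicate 1 and KO replicate 1 together, and 0 to 1 when leaving out 1 library (1 without KO replicate 1, Het replicate 1, WT replicate 1 or WT replicate 2). For Het against WT it was 6 with only the 2 groups, 5 without both of those libraries, and 0 to 7 when leaving out 1 library (7 without KO replicate 1). For KO against Het it was 5 without both libraries and 0 to 4 when leaving out 1 (4 without KO replicate 1).

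With the replicate number as a block, 0, 1 and 0 genes were called for KO against WT, Het against WT and KO against Het. Deviations of same-numbered libraries correlated at -0.12, -0.12 and 0.11 between KO and WT, 0.09, -0.19 and 0.18 between Het and WT, and 0.29, 0.27 and 0.05 between KO and Het. Differently numbered libraries correlated at -0.22 to 0.27 between KO and WT, -0.33 to 0.28 between Het and WT, and -0.34 to 0.15 between KO and Het. The main fit was planned with no block, and the block was run as an alternative. In none of the 3 comparisons was every same-numbered pair above 0.1. The 3 deviations of a gene in a group sum to 0, so these few values cannot decide whether same-numbered libraries share more than a number.

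Signs that turned were all of small differences. For Het against WT, without both libraries Neurog3 was at 0.070 and Rfx6 at 0.015, and with quantile normalization Myt1 was at 0.022 and Rfx6 at 0.021. Leaving out 1 library gave ranges of -0.15 to 0.089 for Neurog3, -0.070 to 0.020 for Myt1, -0.14 to 0.037 for Rfx6 and -0.0097 to 0.085 for Mfng. For KO against Het, St18 was at -0.054 without both libraries. Leaving out 1 library gave ranges of -0.27 to 0.067 for Neurod1, -0.40 to 0.072 for Fev, -0.10 to 0.19 for St18, -0.17 to 0.016 for Amotl2 and -0.17 to 0.019 for Sox4.

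With library weights, 8 of 9 members were lower in KO than in WT at an unadjusted p below 0.05 by limma, against 1 with equal weights. Over all 13306 genes, 2410 were lower at that threshold with library weights and 771 with equal weights, so the rise was not confined to the members. Of genes with an unadjusted p below 0.05 in KO against WT, 771 of 1117 were lower with the deposited scaling, 626 of 1218 with TMM scaling and 570 of 1121 with quantile normalization. A filter of 5 FPKM left Myt1, Rfx6 and St18 untested. At 91 to 284 fragments per library for Fev and 105 to 253 for St18, counting error limits both.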

Other observations

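Of the 13 neuron and glia genes, some differed widely between libraries of 1 genotype and others did not; those named were singled out after their values had been seen. Th, the rate-limiting enzyme gene of catecholamine synthesis, measured 19.6, 1.52 and 1.85 FPKM in KO replicates 1, 2 and 3, 25.3, 1.78 and 6.87 FPKM in Het replicates, and 2.24, 7.76 and 2.73 FPKM in WT replicates. Tubb3, a neuronal tubulin gene, measured 68.9, 14.2 and 14.6 FPKM in KO replicates, 88.7, 14.4 and 34.5 FPKM in Het replicates, and 17.0, 32.8 and 17.9 FPKM in WT replicates. KO replicate 1 and Het replicate 1 were the highest 2 libraries for both genes and also for Phox2a, an autonomic neuron factor gene, at 8.54 and 11.3 FPKM. Ret, a receptor gene of enteric neuron precursors, varied less within each genotype, at 21.5, 24.4 and 22.5 FPKM in KO replicates, 24.9, 19.9 and 22.4 FPKM in Het replicates, and 16.6, 16.3 and 20.5 FPKM in WT replicates. Its log2 difference from WT was 0.34 in KO (SE 0.10, adjusted p = 0.576 by limma) and 0.32 in Het (SE 0.10, adjusted p = 0.945 by limma). Of these 2 libraries, KO replicate 1 had Neurog3 at 68.6 FPKM and Het replicate 1 at 48.3 FPKM.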
